A study of Homo sapiens with 6 samples.

Results

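The genes described here are the protein-coding genes of human chromosome 18 that start before 36.2 Mb, that is, the whole short arm and the first part of the long arm. They were taken from the deposited gene count table by chromosome, biotype and start position, leaving out CDH2, LAMA1 and LAMA3, which gave 124 members of 58735 genes. The 36.2 Mb boundary was chosen by the measured log2 fold changes of these 6 libraries: it is the position at which earlier work on the same counts placed the best single step in fold change along the chromosome. The regional fall therefore selected the members and is described below without a test.

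The study compared 2 groups of human high grade serous ovarian carcinoma cells, with 3 libraries each, all labelled 48 h. Both groups are labelled as stable cells, and they differ in genotype: control, or BARD1-expressing after lentiviral transduction with a BARD1 reading frame. The treatment text speaks of GFP-BARD1, and BARD1 pairs with BRCA1 to form a ubiquitin ligase. The labels name the cells OVCAR8ip1 in the titles and SKOV3ip1, or SKOV3ip1 tumors, elsewhere, so the line and the kind of material are in conflict. The labels do not say whether the control cells carried an empty vector or whether the BARD1-expressing cells are 1 clone. Each group comes from 1 labelled cell population, so an effect of BARD1 and other differences between the 2 cell populations cannot be told apart. Replicates are labelled as biological, but nothing ties them to separate cultures or transductions, so the calls below measure only the spread between these libraries, which may be technical.

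Poly(A)-selected RNA gave 12744310 to 24349158 counted reads per library, the lowest total being that of BARD1-expressing replicate 1. Levels are in CPM, reads scaled to a common library total with TMM factors (trimmed mean of M values), and a count of 0 allows up to 3 reads, or 0.123 to 0.235 CPM, for counting error only. BARD1 was at 17.1, 17.2 and 19.4 CPM in control replicates 1 to 3 and at 49.0, 44.3 and 45.7 CPM in BARD1-expressing replicates 1 to 3. The summed level of 8 serous carcinoma markers, mostly keratins, was 3955 to 4027 CPM in control and 3924 to 4192 CPM in BARD1-expressing libraries, with WT1 under 1 CPM on average and MUC16 at 0 in all 6. Within this list PAX8 fell from 143 to 91.4 CPM and KRT7 rose from 842 to 1066 CPM on average. Of 8 leukocyte markers all were under 1 CPM and CD3E and TYROBP were at 0, with sums of 1.48 to 2.15 CPM in control and 1.26 to 1.99 CPM in BARD1-expressing libraries. Endothelial markers summed to 1.82 to 1.97 and 6.06 to 7.63 CPM (5 of 6 under 1 CPM, none at 0 in all libraries), and fibroblast and pericyte markers to 1015 to 1083 and 841 to 888 CPM, nearly all of it COL1A1, with DCN at 0 and 6 of 8 under 1 CPM. Against that sum the pericyte marker PDGFRB rose from 4.81 to 13.7 CPM. Most of the difference in the endothelial sum came from ESAM, at 1.19 CPM in control and 5.38 CPM in BARD1-expressing libraries on average. The part of these marker differences in the members' values was not tested.

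Neighbouring genes on a human chromosome mostly do unrelated work. Exceptions are clusters of related genes, such as the desmosomal cadherins (the DSC and DSG genes that join epithelial cells), and pairs of genes that start back to back on opposite strands and share 1 promoter region. The stretch described here holds parts of many basic machines of the cell, among them the kinetochore, the nuclear pore, the spliceosome, the proteasome and the actomyosin contractile system, beside genes that few tissues use.

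Of the 124 members, 90 had enough reads to be tested, 22 had reads but too few, and 12 had none in any library. The 34 untested members were at 0.388 CPM or less on average and include tissue-restricted genes such as TTR (transthyretin), AQP4 (a water channel), the melanocortin receptors MC2R and MC5R, and 4 of the 7 desmosomal cadherins (DSC1, DSG1, DSG3 and DSG4). In BARD1-expressing cells 77 of the 90 tested members were lower than in control cells, 3 were higher and 10 were not called (quasi-likelihood test of edgeR, p adjusted by Benjamini-Hochberg over all 15400 tested genes, threshold 0.05). Over all tested genes 12.4% were called lower and 16.5% higher. Because the boundary was drawn from this contrast, nothing is read from the members' share. In 76 of the 90 every BARD1-expressing library lay below every control library, and in 4 every one lay above, against 19.2% and 21.7% of all tested genes. RNA of bulk cells was measured, so fewer cells that express a gene and less RNA per cell cannot be told apart.

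On the log2 scale (BARD1-expressing over control) the median of the 90 tested members was -0.48, or 71.8% of the control level, and the middle 50% of members lay between -0.65 and -0.37. Over all tested genes the median was -0.0027 and the middle 50% lay between -0.17 and 0.18. The sizes differed between members by more than their errors, from -0.20 ± 0.048 (SE) for MYL12A to -0.82 ± 0.064 for TRAPPC8 and -0.89 ± 0.100 for KCTD1. Of the 90 tested members 59 lay within 0.25 of their median, and 1 fell by 2-fold or more. The 3 BARD1-expressing libraries gave medians of -0.45, -0.51 and -0.50 against the mean of the controls over the 83 members with at least 5 CPM, and each control library lay within 0.06 of the mean of the other 2. Summed over all 124 members, expression was 9113, 9310 and 9553 CPM in control replicates 1 to 3 and 6999, 6603 and 6777 CPM in BARD1-expressing replicates 1 to 3, with no overlap between the groups.

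**Figure D1:**
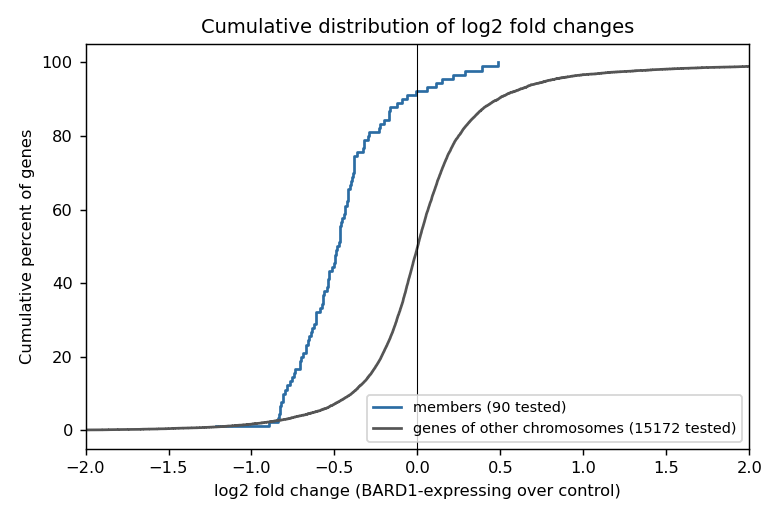
Cumulative percent of genes (vertical axis) against log2 fold change, BARD1-expressing over control (horizontal axis), for the 90 tested members (blue) and all tested genes of other chromosomes (grey). The members' curve lies to the left of the other by about 0.48, their median, with the middle 50% of members between -0.65 and -0.37.

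Both arms showed the fall. On the short arm 40 of 48 tested members were called lower and 3 higher, with a median of -0.46. On the long arm as far as the boundary 37 of 42 were called lower and none higher, with a median of -0.55. Over both arms 85.6% of tested members were called lower, beside 12.4% of all tested genes. Between adjacent members with at least 5 CPM the median difference in log2 fold change was 0.22, and between any pair of such members it was also 0.22. Across the 83 members with at least 5 CPM, which share the 6 libraries, Spearman's rank correlation of the log2 fold change was 0.05 with the control level, -0.19 with start position and -0.07 with exonic length.

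**Figure D2:**
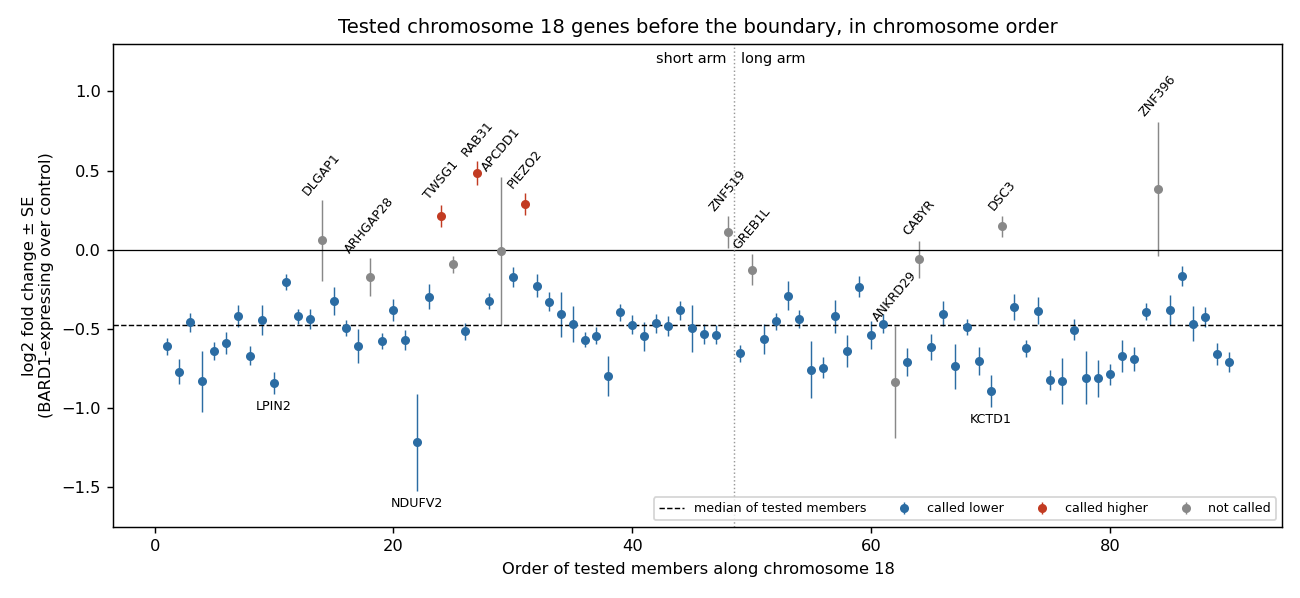
Log2 fold change ± SE (vertical axis) of the 90 tested members in their order along chromosome 18 (horizontal axis), coloured by call, with the median of -0.48 as a dashed line and the 2 arms divided by a dotted line. Most points sit in a band around the dashed line, and the 3 red points (TWSG1, RAB31 and PIEZO2) lie within 8 neighbouring tested members on the short arm.

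The 3 members that rose lay close together, whereas 8 of the 10 that were not called lay elsewhere in the stretch. The 8 consecutive tested members from TWSG1 to PIEZO2, among them PPP4R1, RAB31, VAPA, APCDD1 and NAPG, lie on the short arm within 1.81 Mb (chr18:9334767-11148762, GRCh38), a run singled out after its values were seen. It holds all 3 members that rose, 3 that fell and 2 that were not called, with a median log2 fold change of -0.05. Outside it 74 of 82 tested members fell and none rose, with a median of -0.50. Within the run PPP4R1 and VAPA fell, so genes that rose and genes that fell lie interleaved there. The promoters of the genes that rose, and of VAPA between RAB31 and PIEZO2, are shown next for comparison, together with those of the adjacent paralogs DSC3 and DSC2, which differ on the long arm. Each is the part of the 250 bases before the RefSeq start that no GENCODE 29 exon covers, read 5′ to 3′ on the gene's strand. Capitals mark matches to GGGCGG (the GC box) or CCAAT, on either strand.
TWSG1 (chr18:9334523-9334766, plus strand): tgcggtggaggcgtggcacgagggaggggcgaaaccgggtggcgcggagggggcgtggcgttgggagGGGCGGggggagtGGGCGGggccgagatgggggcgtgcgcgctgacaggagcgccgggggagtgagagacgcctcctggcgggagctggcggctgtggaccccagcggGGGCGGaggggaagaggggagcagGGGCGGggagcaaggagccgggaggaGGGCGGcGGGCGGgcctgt
RAB31 (chr18:9708051-9708164, plus strand): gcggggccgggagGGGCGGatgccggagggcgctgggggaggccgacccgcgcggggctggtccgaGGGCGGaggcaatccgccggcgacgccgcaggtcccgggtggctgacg
VAPA (chr18:9913766-9914001, plus strand): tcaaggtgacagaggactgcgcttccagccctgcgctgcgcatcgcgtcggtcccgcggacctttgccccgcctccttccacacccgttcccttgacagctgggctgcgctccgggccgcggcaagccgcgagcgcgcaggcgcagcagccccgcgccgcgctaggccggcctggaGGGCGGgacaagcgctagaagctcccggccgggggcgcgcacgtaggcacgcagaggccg
PIEZO2 (chr18:11149570-11149819, minus strand): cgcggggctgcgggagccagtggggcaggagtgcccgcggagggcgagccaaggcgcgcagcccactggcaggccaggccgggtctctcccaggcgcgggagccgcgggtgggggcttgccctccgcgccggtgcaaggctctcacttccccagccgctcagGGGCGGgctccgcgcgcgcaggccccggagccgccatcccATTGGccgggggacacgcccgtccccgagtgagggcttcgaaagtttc
DSC3 (chr18:31042816-31042992, minus strand): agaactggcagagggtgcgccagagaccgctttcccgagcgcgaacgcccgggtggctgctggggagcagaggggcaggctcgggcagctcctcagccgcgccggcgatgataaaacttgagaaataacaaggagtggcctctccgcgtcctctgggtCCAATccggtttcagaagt
DSC2 (chr18:31102523-31102671, minus strand): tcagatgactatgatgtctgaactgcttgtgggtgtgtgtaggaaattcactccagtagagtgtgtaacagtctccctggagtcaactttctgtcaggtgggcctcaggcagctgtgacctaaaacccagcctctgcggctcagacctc

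These stretches of TWSG1, RAB31 and PIEZO2 are rich in G and C (78.3%, 82.5% and 76.8%), and so is that of VAPA (74.6%), which fell. DSC3 has 63.3% G and C and 15 CpG dinucleotides over 177 bases, and DSC2 has 51.7% and 1 over 149 bases. Much of that contrast comes from leaving out exon bases. Over the full window of 300 bases DSC3 has 63.3% and 25 CpG without a GC box, and DSC2 has 60.7% and 15 with one. RefSeq promoter windows of 300 bases (250 before and 50 after the start, GRCh38.p14) were matched for 105 of the 124 members, 77 of them tested. Only 1 RefSeq start was taken per gene, and for some genes it lies far from the start in the count table. The window of ARHGAP28, which was not called, begins at 6834235 while the gene begins at 6729718, and it holds TATAAA. The part of such windows in the shares below was not tested. The median G and C content of the windows was 66.7% in the 67 members that fell, 69.7% in the 10 that did not and 59.2% in the 28 that were not tested, against 58.7% over all 35116 windows of the table. A GC box (GGGCGG, either strand) was found in 74.6% of windows of members that fell and 6 of 10 of those that did not. It was found in 46.4% of windows of untested members and 45.0% of all windows, which include untested genes. In the same order, the CCAAT letters were in 26.9%, 5 of 10, 17.9% and 34.6%. The TATA box letters (TATAAA) were in 4.48%, 2 of 10, 10.7% and 11.5%. These matches describe the sequence only.

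The strongest rise was that of RAB31 (ENSG00000168461, chr18:9708165-9862551), a small GTPase of membrane traffic. It was at 34.3, 36.7 and 38.6 CPM in the control libraries and at 55.0, 47.1 and 51.8 CPM in the BARD1-expressing libraries, so each of the latter lay above each of the former. Its log2 fold change was 0.48 ± 0.075 (SE). PIEZO2 (ENSG00000154864, chr18:10666483-11148762), a mechanically gated ion channel, was at 41.6, 44.4 and 40.5 CPM in control and 50.7, 51.5 and 52.2 CPM in BARD1-expressing libraries, again without overlap (0.29 ± 0.067). TWSG1 (ENSG00000128791, chr18:9334767-9402420) encodes a secreted modulator of bone morphogenetic proteins. It was at 134, 145 and 147 CPM in control and 188, 150 and 158 CPM in BARD1-expressing libraries, with a narrow gap between the groups. Its call (0.21 ± 0.070) was lost without control replicate 1 (0.17), control replicate 2 (0.23) or BARD1-expressing replicate 1 (0.11).

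Other genes of the run did fall. The phosphatase subunit PPP4R1 fell from 224, 239 and 241 to 172, 158 and 163 CPM (-0.51 ± 0.052). VAPA, an endoplasmic reticulum protein of membrane contact sites, fell from 302, 298 and 317 to 251, 231 and 251 CPM (-0.32 ± 0.051). NAPG, a factor of vesicle fusion, passed the test at -0.17 ± 0.065 although its groups overlapped, and its call was lost with DESeq2, with a replicate block and in 4 of the 6 fits that leave out 1 library. APCDD1, an inhibitor of Wnt signalling, was at 0.490 and 0.515 CPM on average, too few reads to place it (-0.01 ± 0.469).

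Elsewhere in the stretch 8 tested members were not called. For ARHGAP28, ZNF519, GREB1L, CABYR and DSC3, each at 9 to 55 CPM, the log2 fold change lay more than 2 SE above the members' median. ARHGAP28, a GTPase-activating protein, measured -0.17 ± 0.119 and lies next to the left-out laminin gene LAMA1, which was not called either (295 ± 6.94 and 276 ± 2.26 CPM, SD, n = 3 each, -0.10 ± 0.047). The zinc finger gene ZNF519 was at 20.9, 16.5 and 16.6 CPM in control and at a mean of 19.4 CPM in BARD1-expressing libraries, with overlap between the groups (0.11 ± 0.102). It is the last tested member of the short arm, and pseudogenes named after it make its count uncertain. GREB1L measured -0.13 ± 0.096, with every BARD1-expressing library just below every control library. CABYR, a calcium-binding protein of the sperm tail, measured -0.06 ± 0.119, and 0.036 without BARD1-expressing replicate 2. DLGAP1 (0.06 ± 0.256) and ZNF396 (0.39 ± 0.423) also lay more than 2 SE above the median but were at 1.69 and 0.662 CPM in control cells, and ANKRD29 (-0.84 ± 0.353), at 1.46 CPM, was within 2 SE of it. Of the 2 other genes left out by the rule, CDH2 fell by 0.70 ± 0.052 on the log2 scale, from 370 to 227 CPM on average. LAMA3 fell by 1.41 ± 0.319, from only 47, 54 and 35 reads in control and 14, 15 and 9 in BARD1-expressing libraries.

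Desmosomal cadherins lie side by side on the long arm, and of the 3 that were tested 2 fell and 1 was not called. DSG2 (desmoglein) was at 354, 379 and 388 CPM in control and 260, 231 and 237 CPM in BARD1-expressing libraries, a clear separation (-0.62 ± 0.054). DSC2 (desmocollin; ENSG00000134755, chr18:31058840-31102522) was at 30.2, 30.3 and 27.4 CPM in control and 23.1, 22.2 and 23.2 CPM in BARD1-expressing libraries and fell by 0.36 ± 0.081. DSC3 (ENSG00000134762, chr18:30990008-31042815), its neighbour on the same strand, was at 47.4, 48.3 and 50.3 CPM in control and 56.9, 51.6 and 53.7 CPM in BARD1-expressing libraries. Every BARD1-expressing library was above every control library for DSC3, but the gene was not called (0.15 ± 0.067). Per kilobase of exon the control level was 60.3 CPM for DSG2, 6.89 for DSC3 and 2.35 for DSC2.

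**Figure D3:**
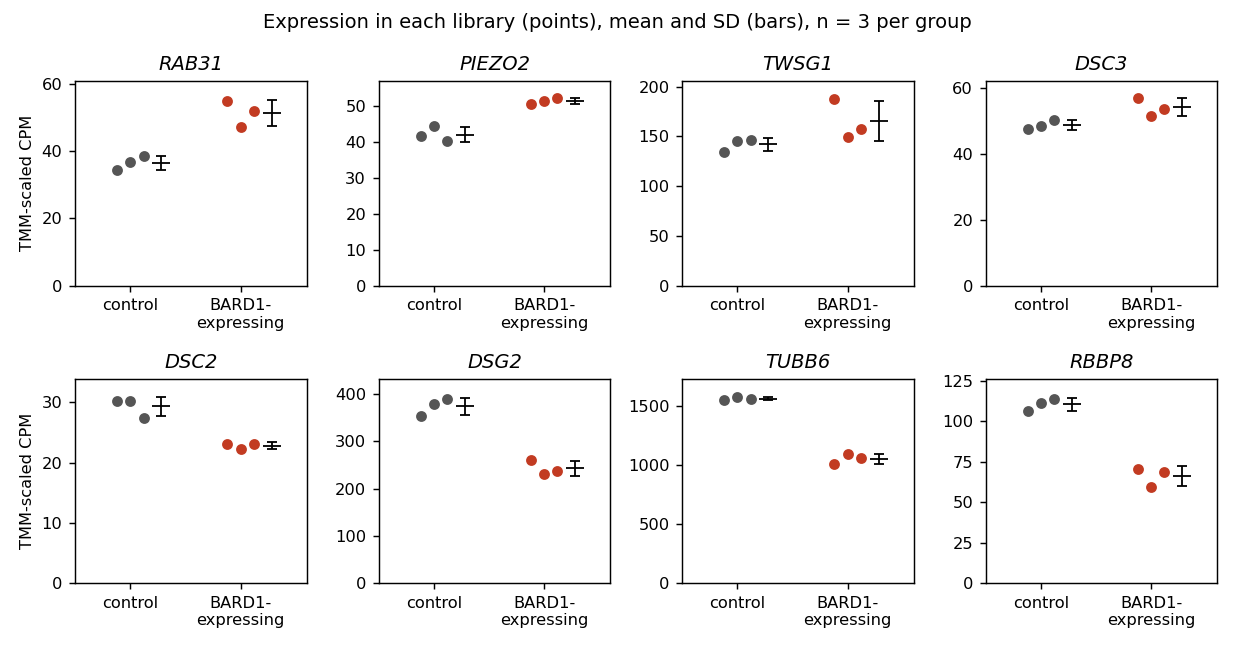
TMM-scaled CPM (vertical axis, from 0) in each of the 3 control (grey) and 3 BARD1-expressing (red) libraries for 8 members, with the mean and SD of each group in black. RAB31, PIEZO2, TWSG1 and DSC3 are higher in each BARD1-expressing library than in any control library, and DSC2, DSG2, TUBB6 and RBBP8 are lower.

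All 8 tested genes of the mitosis, cohesin and centrosome list fell, with a median of -0.55 beside -0.48 for all tested members. Of all tested members 85.6% were called lower, and of all tested genes 12.4%. The functional lists were drawn up with earlier results known, so nothing about a function is read from the counts of any list. TUBB6, a beta tubulin and the most highly expressed member both in CPM and per kilobase of exon, was at 1548, 1572 and 1560 CPM in control and 1010, 1090 and 1058 CPM in BARD1-expressing libraries (-0.57 ± 0.046). The groups were far apart. MAPRE2, a microtubule end-binding protein, fell most in the list, from 76.1, 79.5 and 81.0 to 49.7, 44.0 and 43.7 CPM (-0.79 ± 0.067). NDC80, the kinetochore subunit that binds microtubules, fell from 79.8, 81.8 and 80.8 to 62.4, 54.0 and 65.8 CPM (-0.42 ± 0.068). The nuclear pore and kinetochore protein SEH1L (-0.48 ± 0.061), the centrosome proteins CEP192 (-0.38 ± 0.060) and CEP76 (-0.55 ± 0.092), and ESCO1, which acetylates cohesin (-0.56 ± 0.095), fell as well, and so did the microtubule-binding protein MTCL1 (-0.57 ± 0.063).

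Chromatin, transcription and DNA repair genes fell in 16 of 19 tested cases, with a median of -0.59, and none rose. This stands beside 85.6% of all tested members and 12.4% of all tested genes called lower. KCTD1, a transcriptional repressor, was at 19.1, 20.9 and 20.8 CPM in control and 11.8, 10.7 and 10.4 CPM in BARD1-expressing libraries, the largest fall among members with at least 5 CPM (-0.89 ± 0.100). RBBP8, which encodes the end resection factor CtIP that binds BRCA1, fell from 106, 111 and 114 to 70.6, 59.5 and 68.5 CPM (-0.74 ± 0.065). SMCHD1, a chromatin protein of the inactive X chromosome, fell from 138, 142 and 153 to 95.4, 84.4 and 92.9 CPM (-0.67 ± 0.060). SS18, a subunit of the BAF remodelling complex (-0.49 ± 0.052), the zinc finger factor ZNF24 (-0.39 ± 0.054), the TGF-beta corepressor TGIF1 (-0.44 ± 0.065) and the lineage factor GATA6 (-0.76 ± 0.181, at 4.67 CPM in control) followed. The members of the list that did not fall were ZNF519, GREB1L and ZNF396, given above.

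Signalling genes and small GTPases were the most varied list, with 11 of 17 tested members lower, 3 higher and 3 not called, and a median of -0.38. The share called lower was 85.6% over all tested members and 12.4% over all tested genes. Among those that fell, the kinase ROCK1, which activates myosin, went from 164, 160 and 167 to 110, 99.5 and 103 CPM (-0.65 ± 0.054). The SRC-family kinase YES1 went from 148, 152 and 163 to 105, 92.6 and 99.4 CPM (-0.64 ± 0.059). In both kinases the groups were well separated. PTPRM, a receptor phosphatase of cell contacts (-0.58 ± 0.052), the phosphatase PTPN2 (-0.46 ± 0.060), the adaptor GAREM1 (-0.81 ± 0.168) and the small GTPase RAB12 (-0.38 ± 0.070), a relative of RAB31 on the same arm, fell too. A near-identical partial copy, ROCK1P1, lies on the same chromosome, so the count of ROCK1 is uncertain, although ROCK1P1 itself had 0.725 CPM in control.

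In the actomyosin and cytoskeleton list 6 of 7 tested members fell (median -0.42), beside 85.6% of all tested members and 12.4% of all tested genes. The adjacent genes MYL12A and MYL12B encode nearly identical regulatory light chains of non-muscle myosin. MYL12B was at 592, 616 and 641 CPM in control and 460, 461 and 463 CPM in BARD1-expressing libraries (-0.42 ± 0.047). MYL12A was at 259, 265 and 274 CPM in control and 228, 230 and 234 CPM in BARD1-expressing libraries, a smaller fall (-0.20 ± 0.048) in which the groups still did not overlap. Reads that fit both genes make the split between them uncertain. EPB41L3, a membrane skeleton protein (-0.50 ± 0.051), the actin nucleator SPIRE1 (-0.39 ± 0.054) and DTNA, dystrobrevin alpha (-0.81 ± 0.118), were also lower.

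**Figure D4:**
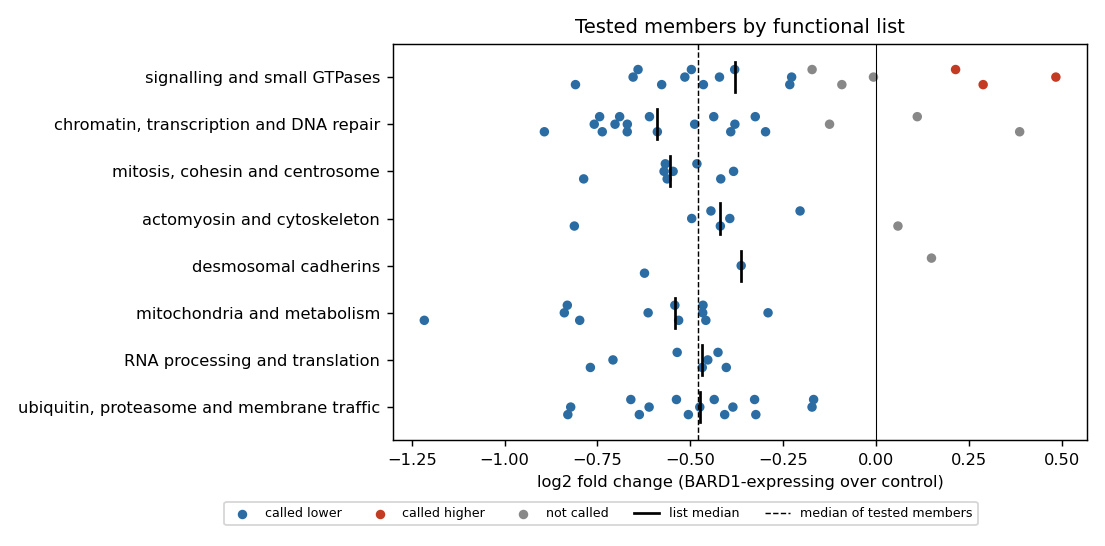
Log2 fold change (horizontal axis) of tested members in 8 functional lists (rows), coloured by call, with each list's median as a black bar and the median of all tested members, -0.48, as a dashed line. List medians range from -0.59 (chromatin, transcription and DNA repair) to -0.36 (desmosomal cadherins), and the 3 red points are all in the signalling list.

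Every tested member of the remaining 3 lists fell, beside 85.6% of all tested members and 12.4% of all tested genes. For mitochondria and metabolism this was 11 of 11, with a median of -0.54. LPIN2, a phosphatidate phosphatase, went from 59.9, 62.6 and 61.7 to 35.3, 32.2 and 35.8 CPM (-0.84 ± 0.069), one of the larger falls among well-expressed members. The mitochondrial protease AFG3L2 (-0.54 ± 0.052), the cholesterol transporter NPC1 (-0.47 ± 0.058), the thymidylate synthase gene TYMS (-0.46 ± 0.058), FAM210A (-0.53 ± 0.062) and the lipid transfer protein gene PRELID3A (-0.80 ± 0.126) were lower as well. TYMS shares 46.6% of its exonic bases with other genes and has pseudogenes named after it, so its count is uncertain. NDUFV2, a core subunit of respiratory complex I, had the lowest log2 fold change of all members (-1.22 ± 0.305), from only 40, 37 and 46 reads in control and 10, 19 and 11 in BARD1-expressing libraries. Its count is uncertain. At 0.663 CPM per kilobase of exon in control cells it lay far below its complex I partners NDUFV1 (26.6) and NDUFS1 (7.33), 28.4% of its exonic bases are shared with the overlapping gene AP005263.1, which was listed at 0 reads in all 6 libraries, and its pseudogene NDUFV2P1 on chromosome 19 was at 2.19 CPM in control and 1.09 CPM in BARD1-expressing cells. The part of these features in its value was not tested.

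In the ubiquitin, proteasome and membrane traffic list 15 of 15 tested members fell (median -0.47). USP14, a deubiquitinase of the proteasome, was at 313, 318 and 331 CPM in control and 227, 198 and 206 CPM in BARD1-expressing libraries (-0.61 ± 0.054). TRAPPC8, a tethering factor of secretory vesicles, fell from 116, 117 and 119 to 72.1, 59.9 and 68.1 CPM (-0.82 ± 0.064), with all 3 BARD1-expressing libraries far below the controls. The ubiquitin ligases MIB1 (-0.44 ± 0.058), RNF138 (-0.51 ± 0.068) and RNF125 (-0.83 ± 0.144) were lower. GALNT1, which starts mucin-type O-glycosylation, fell least (-0.17 ± 0.063), its groups overlapped, and its call was lost with DESeq2, with a replicate block and in 4 of the 6 fits that leave out 1 library. In the list of RNA processing and translation 7 of 7 fell (median -0.47), among them the spliceosome protein SNRPD1 (-0.45 ± 0.053), the mRNA cap methyltransferase RNMT (-0.54 ± 0.061), the mRNA export factor THOC1 (-0.77 ± 0.078) and the Elongator subunit ELP2 (-0.71 ± 0.064).

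The stretch holds 5 pairs of members on opposite strands whose starts lie within 1 kb. All 10 genes were called lower, beside 85.6% of all tested members. FAM210A and RNMT, whose annotated starts overlap by a few bases at chr18:13726660-13726663, measured -0.53 and -0.54. SLC39A6, a zinc transporter, and ELP2 measured -0.66 and -0.71. The other pairs were SPIRE1 and PSMG2 (-0.39 and -0.47), ABHD3 and MIB1 (-0.29 and -0.44) and METTL4 and NDC80 (-0.59 and -0.42). The difference within a pair was 0.0039 to 0.17. Between any 2 members with at least 5 CPM its median was 0.22. Those members include genes that rose or were not called, so the values do not show that paired genes are more alike. The call of ABHD3 was lost without control replicate 1 (-0.27), control replicate 3 (-0.27) or BARD1-expressing replicate 3 (-0.24). The annotated starts of METTL4 and NDC80, ABHD3 and MIB1, and SLC39A6 and ELP2 lie 2, 152 and 59 bases apart, without overlap. Those of FAM210A and RNMT, and of SPIRE1 and PSMG2, overlap. Reads from these overlapping ends cannot be told apart, since no source used here says whether reads were counted by strand.

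At the boundary the last tested members were RPRD1A (-0.43 ± 0.063), SLC39A6 (-0.66 ± 0.068) and ELP2 (-0.71 ± 0.064). The first tested protein-coding genes beyond it were MOCOS (-0.88 ± 0.116), FHOD3 (-2.06 ± 0.169) and TPGS2 (-0.91 ± 0.057). Over the last 10 tested members the median was -0.45, and over the first 10 genes beyond it was -0.82.

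Members that overlap another tested gene fell in 33 of 35 cases, with a median of -0.54, and those that do not in 44 of 55, with a median of -0.44. Among all tested members 85.6% fell. By shared exonic sequence, 38 members share no base with another gene and had a median of -0.44. Of the 90 tested members 13 share at least 10% of their exonic bases with another GENCODE 29 gene, and all 13 fell (median -0.47). Of the 77 with less shared sequence 64 fell and 3 rose (median -0.48). Pseudogenes named after them exist for 18 tested members, CABYR among them, and the part of such copies in the counts was not tested. Rows of other biotypes in the same stretch, mostly long noncoding RNAs and pseudogenes, numbered 480. Of these 32 were tested, 8 called lower and none higher (median -0.61), beside 12.4% called lower over all tested genes. LINC00667 fell from 33.2 ± 1.31 to 21.6 ± 0.848 CPM and the pseudogene ZNF271P from 54.0 ± 1.28 to 33.9 ± 2.16 CPM (SD, n = 3 each), whereas RPL6P27, which shares sequence with a ribosomal protein gene elsewhere, was at 62.0 ± 0.714 and 65.1 ± 5.86 CPM and was not called. The pseudogene DHFRP1 was at 30.3 ± 7.60 and 40.2 ± 4.02 CPM and was not called (0.40 ± 0.214). Every BARD1-expressing library lay above every control library for it. Most of the 24 that were not called were under 5 CPM, so the median rests largely on rows with few reads.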

How the data were processed

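RNA was sequenced from 3 control and 3 BARD1-expressing libraries. The authors deposited 1 table of raw counts per gene for 58735 genes, not normalized. The submitters' processing notes name GRCh38 (hg38) as the build and list DESeq2 1.20.0, featureCounts 1.5.0-p3 and HISAT2 2.0.5. Per the labels' protocols, mRNA was poly(A)-selected, and the library text covers both directional and non-directional kits. No source used here says how strand or reads shared between copies were counted. Table columns carry the libraries' descriptions, and 27 date-like gene symbols were restored from their identifiers.

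In edgeR 4.0.16 (R 4.3.3) filterByExpr left 15400 genes, libraries were scaled by TMM, and the robust quasi-likelihood F test was fitted on group alone (4 residual degrees of freedom), adjusted by Benjamini-Hochberg over all tested genes. The SE is the size of the log2 fold change over the square root of its F statistic. The procedure was tested on simulated data. Members, gene lists and the rule for named genes were chosen with earlier results of these data known. Genes named are the 8 lowest and 8 highest members with at least 5 CPM, up to 4 of the most expressed of each list, those beside the boundary, those called higher and head-to-head pairs (starts within 1 kb). Others named were chosen after their values were seen. Promoters come from RefSeq (GRCh38.p14) and exons from GENCODE 29, in which all 124 members have the same start and end as in the table. Alternatives were RLE scaling, TMM without chromosome 18, DESeq2 1.42.0, no filter, a replicate block and leaving out each library. The values of 1 tested member are not reported here.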

Additional observations from a re-analysis of the deposited data

How the results depend on the processing

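Members called lower numbered 77, and 77 with relative log expression scaling, with TMM factors computed without chromosome 18 and without the filter on low counts. They numbered 74 with DESeq2 (3853 genes called over all chromosomes, against 4460), 75 with the replicate block, and 71 to 79 with 1 library left out. Of the 77, 70 were called lower under all 11 of these settings, and GALNT1, NAPG, MPPE1, ABHD3, GNAL, LDLRAD4 and RIOK3 were not. The median log2 fold change lay between -0.51 and -0.46 under all 11. In alternatives chosen after seeing the data it was -0.50 without the run from TWSG1 to PIEZO2 and -0.44 over the 55 members that overlap no other tested gene, of which 44 fell. The direction of CABYR reversed without BARD1-expressing replicate 2 (0.036), and with 1 library left out it ranged from -0.12 to 0.036. Without the filter KLHL14, with 0 reads in the controls and 6, 3 and 3 in BARD1-expressing libraries, was also called higher. Deviations of same-numbered libraries from their group means had correlations of -0.11, -0.031 and -0.0088. Those of differently numbered libraries ranged from -0.11 to 0.15. With 3 libraries per group this cannot show whether the numbers mark shared cultures or batches. Depth limits the 7 tested members under 5 CPM, whose SE ranged from 0.181 to 0.469.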
